A study of Mus musculus with 8 samples.

Results

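The genes described here are 45 genes of DNA replication and S phase, chosen by name: the proteins that load and start the replicative helicase, the polymerases and their clamp, the enzymes that supply DNA building blocks, and the factors that open S phase or rebuild chromatin behind the fork. All 45 are among the 21885 named genes of the deposited table. RNA of mouse skin was sequenced in 8 libraries. In 4 of them the skin had been treated with MC903 plus phytic acid (called phytic acid skin below), and in the other 4 with MC903 alone, which the submitters title control (MC903 skin). MC903, or calcipotriol, is a vitamin D analogue used on mouse skin to raise an inflammation like that of atopic dermatitis, and phytic acid is inositol hexaphosphate, a phosphate store of plant seeds. Both groups received MC903 and neither was untreated, so every difference is relative to MC903 skin. The strain, sex, age, skin site, doses and treatment times are not given in the labels, nor whether the libraries came from separate mice. The p-values reflect only the variation among these 8 libraries, which could be technical.

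A cell copies its DNA once per cycle. In G1 the origin recognition complex, with Cdc6 and Cdt1, loads the ring of Mcm2 to Mcm7 onto DNA. At the start of S phase Cdc45 and the GINS complex turn that ring into the working helicase, and primase and the polymerases then copy both strands. Many of these genes are switched on by E2F transcription factors when a cell commits to divide. In normal epidermis, dividing cells lie mainly in the basal layer and in the growing hair follicle, and division rises in inflamed, thickened skin.

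The values are FPKM, as deposited by the authors: fragments counted on a gene, scaled to its length and to the library's total. Recovered totals came to 38310034 to 42997271 reads in phytic acid skin and 31676934 to 37639476 in MC903 skin, so each phytic acid library was the deeper. All 10 skin identity genes examined were detected, with Krt5 at a mean of 814 FPKM in phytic acid skin and 888 in MC903 skin. MC903 replicate 3 stood apart. It held the inner root sheath keratins Krt25 and Krt71 of the growing hair follicle at 959 and 1373 FPKM, against at most 16.5 and 22.3 in any other library (MC903 replicate 2) and under 0.1 in every phytic acid library. Without it, the count of lowered replication genes was 24, as with it, but the set differed. The call of Chaf1a was lost and 1 other gene gained a call. In that fit 12.8% of all tested genes fell, against 11.6% with all libraries.

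Replication genes were lower in phytic acid skin, and none was called higher. Of the 45 genes, 43 passed the expression filter (1 FPKM or more in 4 libraries or more) and 24 of these fell at an adjusted p under 0.05 (limma on log2(FPKM + 1), Benjamini-Hochberg over all 12165 tested genes). Orc1 and Pole passed the filter through MC903 skin alone, and without them 22 of 41 fell, with a median log2 fold change of -0.38. Of all tested genes, 11.6% fell (1412) and 14.2% rose (1722). With median-of-ratios scaling 1828 fell and 1469 rose over all genes, and 27 of the 43 fell. The median log2 fold change (phytic acid skin minus MC903 skin) was -0.40 for the 43 genes and 0.05 for all tested genes. Without any filter, 23 of all 45 fell and 0 rose, against 7.49% and 8.99% of the 18483 detected genes that fell and rose. In 26 of the 45 genes every phytic acid library was below every MC903 library. The share was 9.87% of detected genes and 13% of tested genes. All 24 called genes were among the 26, so this separation is not evidence apart from the calls. No member stood the other way round. By mean FPKM, 8 of the called genes stood under 50% of their MC903 mean (28.4% to 49.5%): Mcm5, Ccne1, Orc1, Mcm2, Rrm2, Uhrf1, Cdt1 and Mcm3. That held for 3.49% of all tested genes. Of the 8, Orc1 passed the filter through MC903 skin alone, and Ccne1 reached 1 FPKM in 4 MC903 libraries and 1 phytic acid library. The pseudocount of 1 FPKM shrinks changes of low genes. With it, 3 of the 8 (Mcm5, Rrm2 and Uhrf1) fell by more than 1 on the log2 scale, as did 2.57% of all tested genes, and all 8 did by limma voom on recovered reads.

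In bulk skin, fewer dividing cells and less RNA per dividing cell cannot be told apart. FPKM is relative to each library's total. Centred on basal keratinocyte genes, 13 replication genes fell and 0 rose (of all tested genes 720 fell, or 5.92%, and 1319 rose on that scale), with a median of -0.31. Leaving out 1 library at a time gave 19 to 24 lowered genes, and 7.74% to 12.8% of all tested genes fell in those fits.

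**Figure D1:**
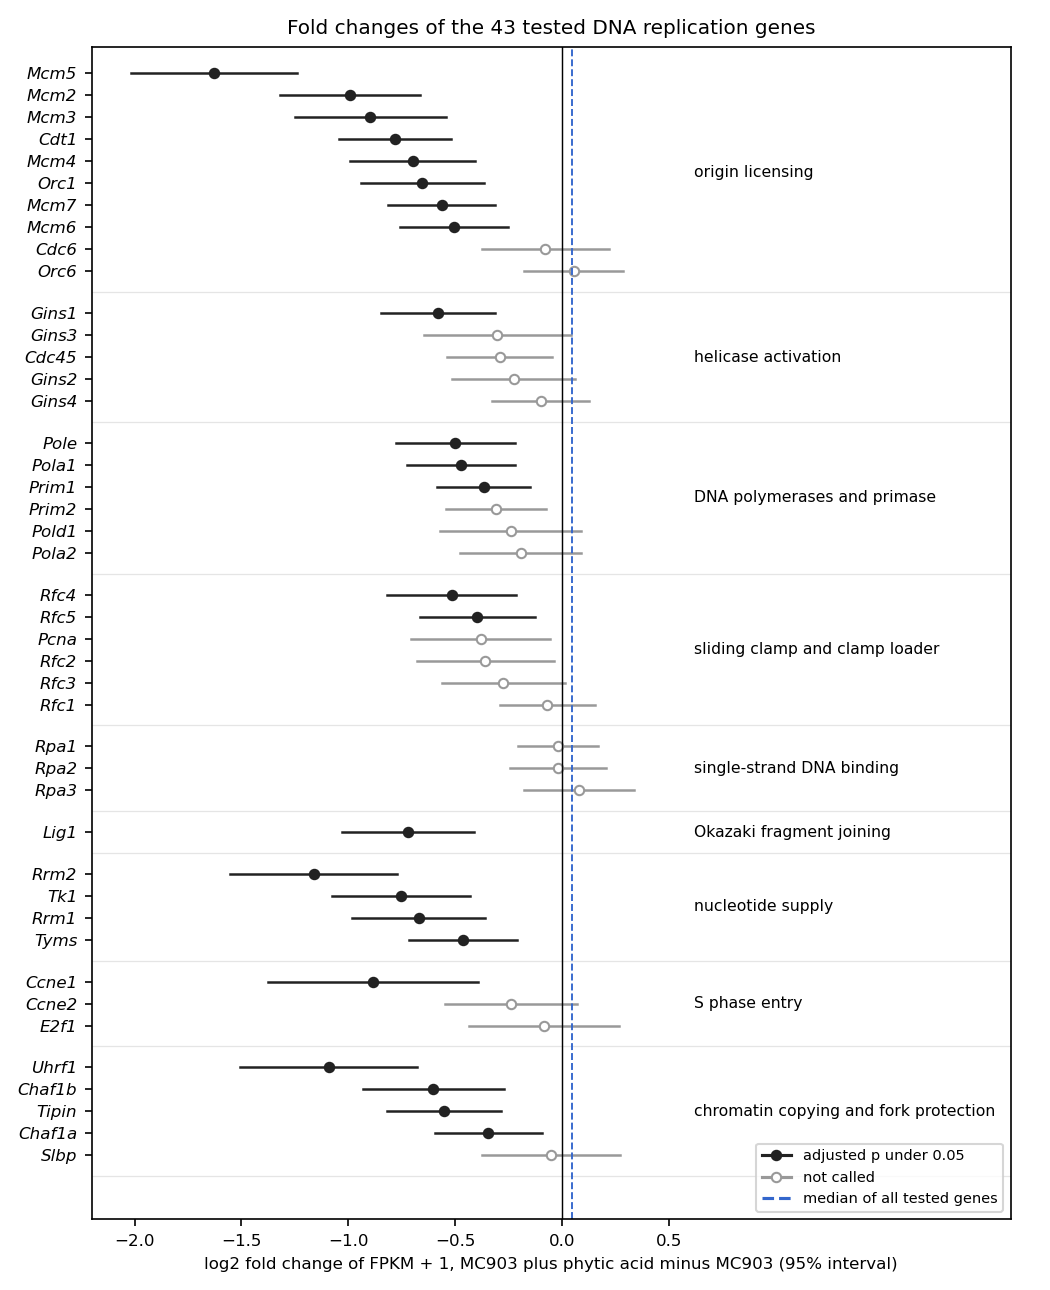
Log2 fold change of FPKM + 1 (phytic acid skin minus MC903 skin, with its 95% interval) of the 43 tested genes, grouped by role. Filled points are the 24 genes with an adjusted p under 0.05. Of the 43 points 41 lie left of 0, with Mcm5, Rrm2 and Uhrf1 the furthest left. The intervals of the 3 Rpa genes cross 0, as do those of others, among them Orc6, Cdc6, Gins4, Rfc1, E2f1 and Slbp.

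Promoter windows from RefSeq (GRCm38.p6, from 250 bases before to 50 after the annotated start) were found for 36 of the 45 genes. The entries not found were those of Mcm4, Gins1, Gins2, Gins4, Prim2, Pole, Rfc2, Ccne2 and Tipin. The E2F consensus was searched on both strands as TTTCCCGC, TTTCGCGC, TTTGCCGC and TTTGGCGC, and the CCAAT box as CCAAT. The E2F letters stood in 13 of 36 genes (36.1%), against 2.6% of the 27025 genes in the table and 4.5% of the 9660 that were also tested. They stood in 9 of the 20 lowered genes with a window (45%) and in 4 of the 14 tested genes that were not called (28.6%). CCAAT stood in 23 of 36 (63.9%), against 41.1% of all genes, and in 60% of the lowered genes with a window and 71.4% of those not called. A match is a run of letters, not a measured binding site.

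The windows below are those of the 4 lowered genes of smallest p and of the 2 tested genes of largest p, so that genes that fell can be set beside genes that were not called. They are written 5′ to 3′ on the gene's strand, with E2F matches in capitals. They lie at chr8:75109259-75109558 (Mcm5, plus strand), chr6:88898731-88899030 (Mcm2, minus strand), chr8:122567765-122568064 (Cdt1, plus strand), chr12:24708004-24708303 (Rrm2, plus strand), chr4:132768110-132768409 (Rpa2, plus strand) and chr11:75348334-75348633 (Rpa1, minus strand).
Mcm5: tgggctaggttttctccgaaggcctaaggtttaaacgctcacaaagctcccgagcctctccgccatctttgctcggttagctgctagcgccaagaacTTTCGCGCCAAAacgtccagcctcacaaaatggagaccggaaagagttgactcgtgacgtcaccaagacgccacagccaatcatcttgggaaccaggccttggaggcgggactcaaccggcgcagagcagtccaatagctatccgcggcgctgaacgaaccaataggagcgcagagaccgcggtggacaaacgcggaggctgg
Mcm2: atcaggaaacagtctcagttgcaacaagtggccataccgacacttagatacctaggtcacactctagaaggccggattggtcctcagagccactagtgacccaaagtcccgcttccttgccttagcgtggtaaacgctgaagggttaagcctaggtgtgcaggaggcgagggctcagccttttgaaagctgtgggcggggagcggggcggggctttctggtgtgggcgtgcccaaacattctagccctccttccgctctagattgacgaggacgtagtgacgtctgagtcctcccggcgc
Cdt1: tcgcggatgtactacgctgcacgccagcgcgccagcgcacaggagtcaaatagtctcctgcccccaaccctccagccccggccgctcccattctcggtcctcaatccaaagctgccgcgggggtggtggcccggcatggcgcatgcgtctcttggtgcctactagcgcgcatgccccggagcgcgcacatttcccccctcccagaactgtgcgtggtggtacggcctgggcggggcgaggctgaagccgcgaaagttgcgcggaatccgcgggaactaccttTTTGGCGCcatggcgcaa
Rrm2: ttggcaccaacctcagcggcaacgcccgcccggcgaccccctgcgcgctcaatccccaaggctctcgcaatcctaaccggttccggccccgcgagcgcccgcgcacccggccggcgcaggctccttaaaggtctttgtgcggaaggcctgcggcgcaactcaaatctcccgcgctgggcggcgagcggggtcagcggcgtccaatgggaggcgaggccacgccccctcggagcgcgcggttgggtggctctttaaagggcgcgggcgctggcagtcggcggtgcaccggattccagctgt
Rpa2: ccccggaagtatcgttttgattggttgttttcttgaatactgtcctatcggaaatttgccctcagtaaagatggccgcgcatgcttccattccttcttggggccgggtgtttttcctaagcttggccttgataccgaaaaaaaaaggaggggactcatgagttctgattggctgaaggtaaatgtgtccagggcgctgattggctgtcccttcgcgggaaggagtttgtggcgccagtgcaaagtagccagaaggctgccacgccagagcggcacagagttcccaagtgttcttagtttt
Rpa1: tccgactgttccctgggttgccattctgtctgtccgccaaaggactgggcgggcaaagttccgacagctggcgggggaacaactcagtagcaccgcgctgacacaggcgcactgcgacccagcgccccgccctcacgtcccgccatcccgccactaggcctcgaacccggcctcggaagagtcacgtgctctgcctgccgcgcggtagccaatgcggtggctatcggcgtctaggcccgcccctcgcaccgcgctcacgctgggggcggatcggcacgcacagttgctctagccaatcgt
Positions count from the start site of the promoter annotation as 0, which can differ from the gene bounds used here. The Mcm5 window ends before the gene's first base (75109569), and the minus-strand Rpa1 window lies beyond the gene's last coordinate (75348324). The Mcm5 window held overlapping matches on both strands from -153 to -142, and the Cdt1 window 1 match from 32 to 39. The Mcm2, Rrm2, Rpa2 and Rpa1 windows held none of these letters. CCAAT was found 3 times each in the Mcm5 and Rpa2 windows, 2 times in that of Rpa1, and 1 time each in those of Mcm2 and Rrm2.

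All 6 genes of the helicase ring, Mcm2 to Mcm7, fell, with Mcm5 showing the largest fitted change. In each of them no library of one group overlapped the other. Of all tested genes 11.6% fell, and in 13% every phytic acid library was below every MC903 library. Their summed FPKM was 34.9 to 47.4 in phytic acid skin and 67.4 to 89.2 in MC903 skin. Mcm5 (chromosome 8, 75109569 to 75128439 in GRCm38) stood at 4.73, 4.02, 3.49 and 6.29 FPKM in phytic acid skin, against 15.8, 15.8, 13 and 20.6 in MC903 skin, each in the order of replicates 1 to 4, as in all such lists here. The phytic acid mean was 28.4% of the MC903 mean, a log2 fold change of -1.63 ± 0.17 (SE, limma adjusted p = 0.000486). Mcm2 (chromosome 6, 88883474 to 88898780) stood at 2.19, 1.996, 1.35 and 2.69 FPKM in phytic acid skin, against 4.72, 4.61, 4.78 and 5.97 in MC903 skin, with a log2 fold change of -0.99 ± 0.15 (SE, limma adjusted p = 0.00178).

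Mcm3 followed, at 5.34, 5.15, 4.25 and 6.999 FPKM in phytic acid skin, against 10.2, 9.75, 9.69 and 14.3 in MC903 skin (log2 fold change -0.90 ± 0.16). Mcm4 stood at 9.4, 7.61, 8.24 and 10.7 FPKM in phytic acid skin, against 14.8, 12.8, 15.2 and 18.1 in MC903 skin (log2 fold change -0.70 ± 0.13). Mcm6 and Mcm7 moved least within the ring. Mcm6 averaged 10.4 ± 1.36 FPKM in phytic acid skin and 15.1 ± 1.54 in MC903 skin and Mcm7 averaged 8.39 ± 0.98 FPKM in phytic acid skin and 12.9 ± 1.36 in MC903 skin (SD, n = 4), with log2 fold changes of -0.50 ± 0.11 and -0.56 ± 0.11 (SE). Centred on basal keratinocyte genes, the calls of Mcm6 and Mcm7 were lost (limma adjusted p = 0.0877 and 0.0699). The protein subunits act in equal numbers in the ring, but protein was not measured here. The fitted log2 fold changes of their RNA spanned -1.63 to -0.50. Per length, the level of Mcm5 over that of Mcm6 was 0.461, 0.391, 0.397 and 0.519 in phytic acid replicates 1 to 4, against 1.09, 1.17, 0.87 and 1.2 in MC903 replicates 1 to 4. Mcm5 was thus the lower of the pair in every phytic acid library and in MC903 replicate 3, and the higher in the other MC903 libraries.

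The loading factors split. Cdt1, which brings the ring to the origin, stood at 1.91, 1.85, 1.39 and 1.63 FPKM in phytic acid skin, against 3.67, 3.43, 3.09 and 4.37 in MC903 skin (log2 fold change -0.78 ± 0.12, SE, limma adjusted p = 0.00184). Orc1, the subunit of the origin recognition complex whose amount follows the cell cycle, stood at 0.353, 0.57, 0.234 and 0.67 FPKM in phytic acid skin, against 1.29, 1.16, 1.11 and 1.57 in MC903 skin. It was under 1 FPKM in every phytic acid library, as was Pole. The phytic acid mean of Orc1 was 35.7% of the MC903 mean, and its log2 fold change was -0.65 ± 0.13 on the log2(FPKM + 1) scale and -1.59 by limma voom on the recovered reads (35 to 204 per library).

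Cdc6 and Orc6, the other loading factors, were not called. Cdc6 averaged 1.18 ± 0.244 FPKM in phytic acid skin and 1.31 ± 0.311 in MC903 skin (SD, n = 4), with a 95% interval of the log2 fold change of -0.38 to 0.22. Orc6 averaged 8.92 ± 0.98 FPKM in phytic acid skin and 8.54 ± 0.729 in MC903 skin, with an interval of -0.18 to 0.28. Their groups overlapped, and the fitted direction of each turned under another setting: that of Cdc6 with basal centring and library weights, and that of Orc6 with median-of-ratios scaling.

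**Figure D2:**
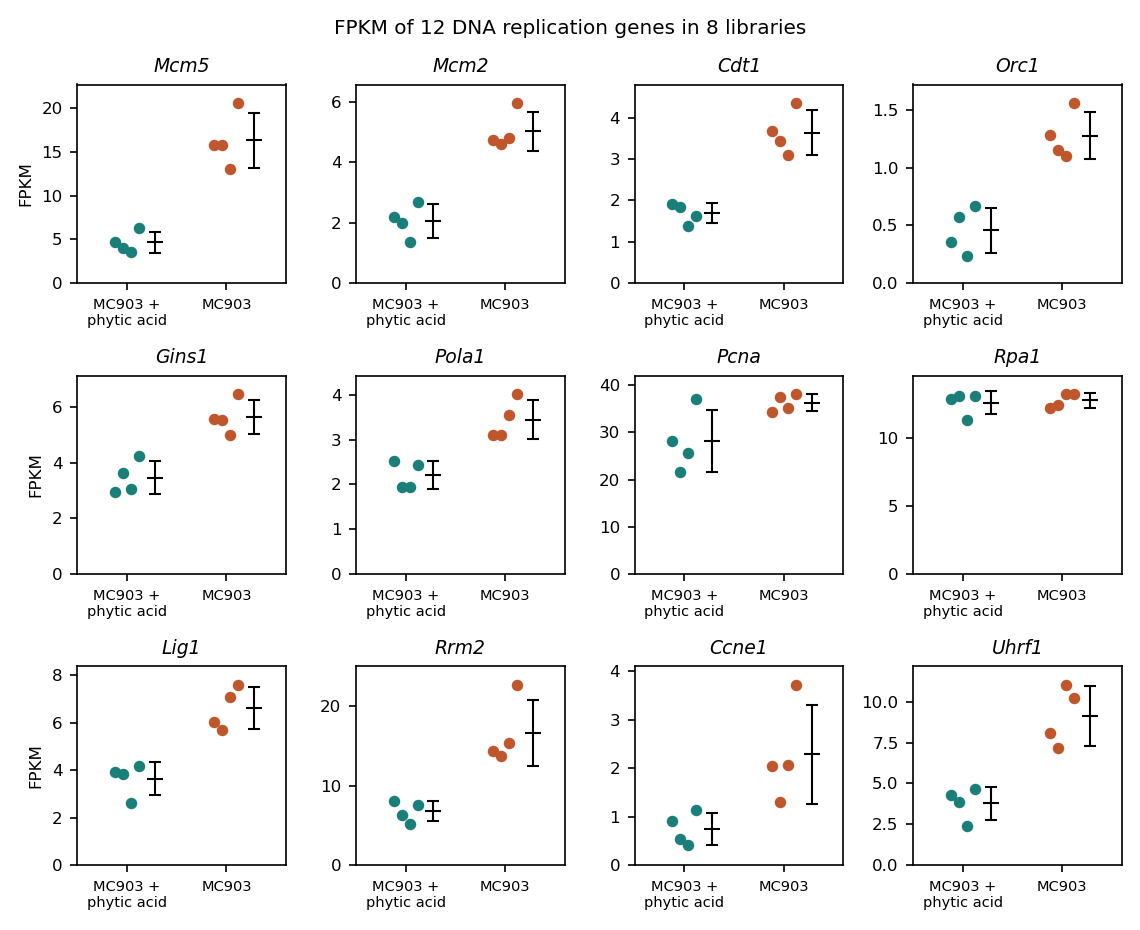
FPKM of 12 genes in each library (points, replicates 1 to 4 from left to right) with mean and SD (n = 4), phytic acid skin on the left of each panel. The groups are apart for all but Pcna and Rpa1.

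Of the genes that start the helicase, Gins1 alone was called. Gins1, a subunit of the GINS complex, stood at 2.95, 3.62, 3.05 and 4.22 FPKM in phytic acid skin, against 5.56, 5.52, 4.99 and 6.47 in MC903 skin (log2 fold change -0.58 ± 0.12, SE, limma adjusted p = 0.00797), and the groups did not overlap. The 4 GINS proteins form 1 complex, and of the other subunits none was called. Gins4 averaged 14.1 ± 1.41 FPKM in phytic acid skin and 15.2 ± 1.41 in MC903 skin (SD, n = 4), with an interval of the log2 fold change of -0.32 to 0.13. Gins2, Gins3 and Cdc45, the partner of GINS on the ring, had log2 fold changes of -0.23 to -0.30, and none was called. Mcm10, which helps the helicase to fire, did not pass the filter: it stood at 0.469, 0.451, 0.32 and 0.638 FPKM in phytic acid skin, against 0.989, 0.933, 1.13 and 1.31 in MC903 skin. Its groups did not overlap, and it was called when no filter was used (limma adjusted p = 0.00823).

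The polymerase and primase genes had small fitted differences. All 6 had a fitted log2 fold change below 0 (-0.19 to -0.50), as did 43.7% of all tested genes. Of the 6, 3 were called lower, as were 11.6% of all tested genes. Pola1, the catalytic subunit of polymerase alpha that starts each new strand, stood at 2.51, 1.94, 1.93 and 2.43 FPKM in phytic acid skin, against 3.11, 3.09, 3.55 and 4.03 in MC903 skin (log2 fold change -0.47 ± 0.11, SE, limma adjusted p = 0.0148). Pole, the catalytic subunit of the leading strand polymerase, stood at 0.847, 0.992, 0.69 and 0.7998 FPKM in phytic acid skin, against 1.34, 1.24, 1.99 and 1.84 in MC903 skin (log2 fold change -0.50 ± 0.12). The call of Pole was lost without MC903 replicate 4. Prim1, the catalytic subunit of primase, stood at 5.17, 4.85, 4.73 and 6.16 FPKM in phytic acid skin, against 7.35, 7.07, 6.76 and 6.81 in MC903 skin (log2 fold change -0.37 ± 0.10). In all 3 the groups did not overlap, as in every called member. The call of Prim1 (limma adjusted p = 0.0222) was lost without any 1 of 6 libraries (all but phytic acid replicate 4 and MC903 replicate 3). Pola2, Pold1 (the lagging strand polymerase) and Prim2 were not called, although the groups of Prim2 did not overlap (1.8 ± 0.158 FPKM in phytic acid skin and 2.48 ± 0.355 in MC903 skin, SD, n = 4, limma adjusted p = 0.0555). With centring on basal keratinocyte genes no polymerase or primase gene was called.

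Of the clamp and its loader, 2 of 6 genes fell, as did 11.6% of all tested genes. Pcna, the sliding clamp and the most abundant of the 45 genes, stood at 28.2, 21.6, 25.7 and 37 FPKM in phytic acid skin, against 34.3, 37.4, 35.1 and 38.2 in MC903 skin. Phytic acid replicate 4 lay among the MC903 libraries, and Pcna was not called with all libraries (log2 fold change -0.38 ± 0.15, SE, limma adjusted p = 0.0834), whereas it was without that replicate (limma adjusted p = 0.0151). In the clamp loader, Rfc4 stood at 6.92, 5.38, 6.55 and 8.85 FPKM in phytic acid skin, against 9.06, 9.89, 11.4 and 10.6 in MC903 skin (log2 fold change -0.52 ± 0.14). Rfc5 stood at 2.84, 3.41, 2.84 and 3.79 FPKM in phytic acid skin, against 4.34, 3.92, 4.5 and 5.45 in MC903 skin (log2 fold change -0.40 ± 0.12). Both were called and their groups did not overlap. The call of Rfc4 was lost without MC903 replicate 4. That of Rfc5 was lost in 5 of the 8 fits that left out a library, and was kept without phytic acid replicate 4 and without MC903 replicates 2 or 3. Rfc1, the large subunit, averaged 10.9 ± 0.913 FPKM in phytic acid skin and 11.5 ± 1.14 in MC903 skin (SD, n = 4), and its log2 fold change had an interval of -0.29 to 0.15. Rfc2 and Rfc3 were not called. With centring on basal keratinocyte genes none of the 6 was called.

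None of the 3 single-strand DNA binding genes was called. Replication protein A coats the unwound strands and also serves DNA repair. Rpa1 stood at 12.9, 13.1, 11.4 and 13.1 FPKM in phytic acid skin, against 12.2, 12.4, 13.3 and 13.3 in MC903 skin, and the groups overlapped. Its log2 fold change was -0.02 with a 95% interval of -0.21 to 0.17, which holds no fall as large as any fitted in the Mcm ring. Rpa2 averaged 6.46 ± 0.762 FPKM in phytic acid skin and 6.53 ± 0.429 in MC903 skin (SD, n = 4), with an interval of -0.24 to 0.21. Rpa3 stood at 18, 15.3, 16 and 21.3 FPKM in phytic acid skin, against 14.9, 16.2, 17.9 and 17.3 in MC903 skin, with an interval of -0.18 to 0.34. The fitted directions of Rpa1 and Rpa2 turned with scaling to TPM and with basal centring.

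Of the enzymes that finish the lagging strand, Lig1, the ligase that seals Okazaki fragments, stood at 3.92, 3.82, 2.62 and 4.19 FPKM in phytic acid skin, against 6.04, 5.71, 7.09 and 7.62 in MC903 skin. Its log2 fold change was -0.72 ± 0.14 (SE, limma adjusted p = 0.00567), and the groups did not overlap. Fen1, the nuclease that trims the fragment ends, was low in all libraries, at 0.302 to 0.547 FPKM in phytic acid skin and 0.399 to 0.735 in MC903 skin (28 to 67 recovered reads per library). It did not pass the filter, and without a filter it was not called (limma adjusted p = 0.161).

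All 4 nucleotide supply genes fell, against 11.6% of all tested genes. In all 4 the groups did not overlap, as in every called member. Of all tested genes, 13% had every phytic acid library below every MC903 library. Rrm2 (chromosome 12, 24708241 to 24714146), the small subunit of ribonucleotide reductase that limits deoxynucleotide supply in S phase, stood at 8.04, 6.35, 5.2 and 7.62 FPKM in phytic acid skin, against 14.4, 13.8, 15.4 and 22.8 in MC903 skin (log2 fold change -1.16 ± 0.17, SE, limma adjusted p = 0.00187). Rrm1, the large subunit, stood at 6.39, 5.69, 4.46 and 7.58 FPKM in phytic acid skin, against 9.37, 9.43, 10.1 and 11.4 in MC903 skin, with a log2 fold change of -0.67 ± 0.14. Per length, the level of Rrm2 over that of Rrm1 was 1.01 to 1.26 in phytic acid skin and 1.46 to 2.01 in MC903 skin. Tk1, the thymidine kinase of S phase, stood at 2.77, 3.04, 2.08 and 3.13 FPKM in phytic acid skin, against 5.05, 4.23, 5.35 and 6.77 in MC903 skin (log2 fold change -0.75 ± 0.14). Tyms, which makes thymidylate, stood at 2.5, 1.87, 1.82 and 2.27 FPKM in phytic acid skin, against 2.86, 3.1, 3.69 and 3.5 in MC903 skin (log2 fold change -0.46 ± 0.11). The call of Tyms was lost with basal centring (limma adjusted p = 0.154).

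Among the genes that open S phase, Ccne1 fell, whereas Ccne2 and E2f1 were not called. Ccne1 encodes cyclin E1, which activates Cdk2 at the end of G1. It stood at 0.903, 0.53, 0.411 and 1.14 FPKM in phytic acid skin, against 2.05, 1.3, 2.08 and 3.73 in MC903 skin (log2 fold change -0.88 ± 0.22, SE, limma adjusted p = 0.0172). The phytic acid mean was 32.6% of the MC903 mean, and the log2 fold change was -1.49 with a pseudocount of 0.1 and -1.64 by limma voom. Its MC903 libraries varied widely, with replicate 4 the highest. Ccne2 averaged 2.94 ± 0.557 FPKM in phytic acid skin and 3.64 ± 0.624 in MC903 skin (SD, n = 4). E2f1, which encodes an activating E2F factor, stood at 2.54, 1.65, 1.22 and 2.2 FPKM in phytic acid skin, against 1.69, 1.85, 2.26 and 2.37 in MC903 skin, with an interval of the log2 fold change of -0.43 to 0.27. Its groups overlapped and its fitted direction turned with library weights and without phytic acid replicate 3.

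Of the 5 genes that copy chromatin or guard the fork, 4 fell, against 11.6% of all tested genes, and Slbp was not called. Uhrf1 (chromosome 17, 56303321 to 56323486) encodes the factor that guides DNA methylation onto the new strand. It stood at 4.31, 3.84, 2.36 and 4.65 FPKM in phytic acid skin, against 8.09, 7.16, 11.1 and 10.2 in MC903 skin (log2 fold change -1.09 ± 0.18, SE, limma adjusted p = 0.00337). Tipin, which guards paused forks, stood at 9.19, 12, 12.6 and 13 FPKM in phytic acid skin, against 17.8, 19, 15.5 and 17.7 in MC903 skin (log2 fold change -0.55 ± 0.12). Chaf1a and Chaf1b encode subunits of chromatin assembly factor 1, which puts histones on new DNA. Chaf1b stood at 0.996, 2.01, 2.08 and 1.66 FPKM in phytic acid skin, against 2.99, 2.75, 2.9 and 3.46 in MC903 skin (log2 fold change -0.60 ± 0.15). Chaf1a stood at 0.901, 1.28, 0.917 and 1.15 FPKM in phytic acid skin, against 1.38, 1.46, 1.79 and 1.84 in MC903 skin (log2 fold change -0.34 ± 0.11). In all 4 the groups did not overlap, as in every called member. The call of Chaf1a (limma adjusted p = 0.0485) was lost in 7 of the 8 fits that left out a library, and stayed in the fit without phytic acid replicate 2. With basal centring Uhrf1 alone of the 5 was called. Slbp, whose protein binds histone messages, averaged 5.28 ± 1.15 FPKM in phytic acid skin and 5.45 ± 0.725 in MC903 skin (SD, n = 4) and was not called, with an interval of the log2 fold change of -0.38 to 0.27.

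**Figure D3:**
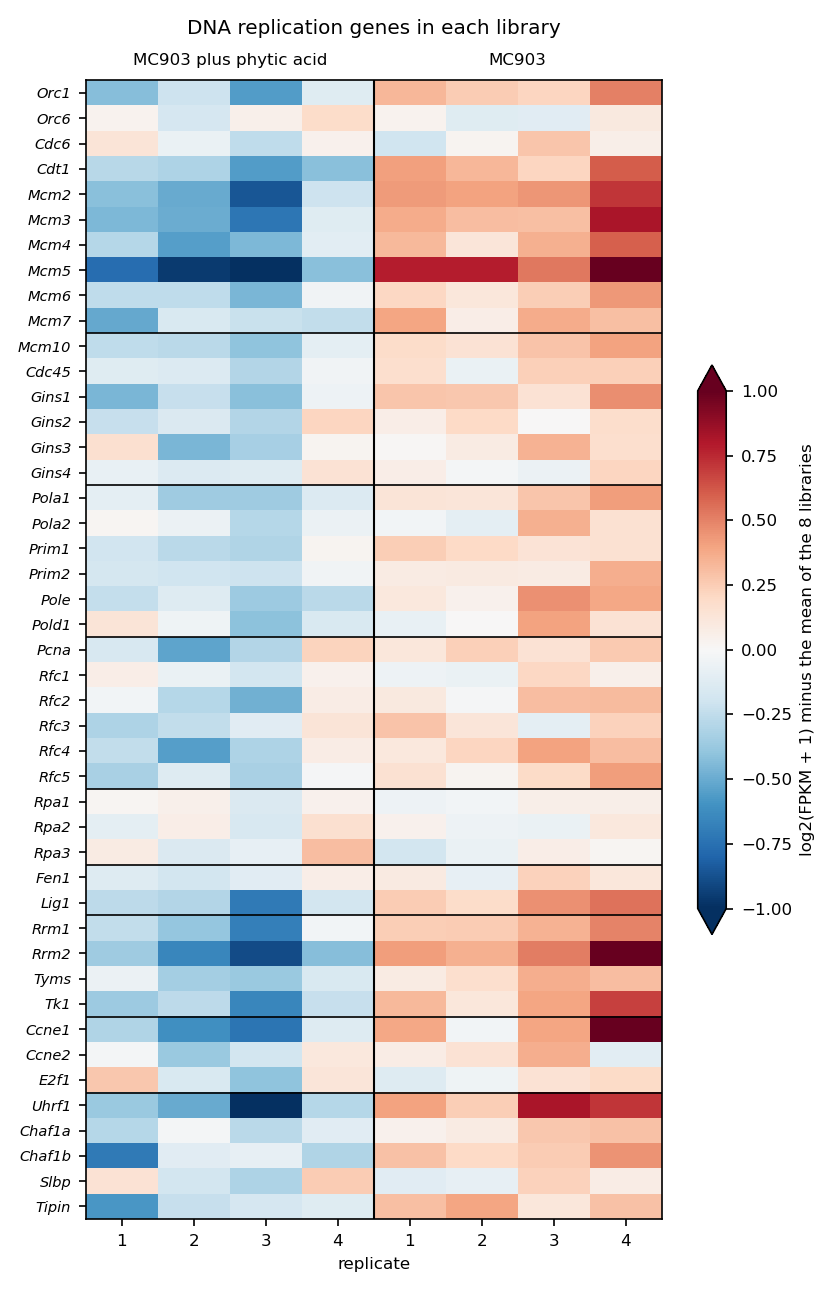
log2(FPKM + 1) of each of the 45 genes minus its mean over the 8 libraries, with the 4 phytic acid libraries on the left and lines between roles; the colours stop at 1 in either direction. Most genes lie below their mean in the phytic acid libraries, as the 24 calls show. The 3 Rpa genes show no such split, nor do others such as Orc6, Rfc1, E2f1 and Slbp.

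Within each group the extreme values often came from the same library. Phytic acid replicate 3 had the lowest value of its group for 29 of the 45 genes, and phytic acid replicate 4 the highest for 30. MC903 replicate 4 had the highest value of its group for 27 of the 45 and MC903 replicate 2 the lowest for 20. MC903 replicate 3, the library with growing hair follicle keratins, was the highest for 13 and the lowest for 11. The summed FPKM of the 45 genes was 233, 215, 205 and 273 in phytic acid replicates 1 to 4, against 316, 308, 330 and 371 in MC903 replicates 1 to 4, and the groups did not overlap.

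Further replication genes fell too. Of 35 tested genes of the replication machinery outside the 45, 12 fell and 0 rose (median -0.32 on the log2 scale). Over all tested genes 11.6% fell and 14.2% rose. Dtl and Recql4, both among the 12, passed the filter through MC903 skin alone, and without them 10 of 33 fell (median -0.24). Those of smallest p were Gmnn, Dbf4 and Hells. Gmnn encodes geminin, the inhibitor of Cdt1, and averaged 6.11 ± 0.787 FPKM in phytic acid skin and 14.9 ± 3.15 in MC903 skin (log2 fold change -1.14 ± 0.15). Dbf4, the activator of the Cdc7 kinase, averaged 2.1 ± 0.295 FPKM in phytic acid skin and 3.9 ± 0.528 in MC903 skin. Hells, a chromatin remodeller, averaged 2.47 ± 0.627 FPKM in phytic acid skin and 4.91 ± 0.475 in MC903 skin (SD, n = 4). Cdt1 and its inhibitor were thus both lower. With centring on basal keratinocyte genes, 4 of the 35 fell, and 19 fell with median-of-ratios scaling. In those fits 5.92% and 15% of all tested genes fell.

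Of 19 tested genes of nucleotide supply outside the 45, 10 fell and 1 rose, with a median of -0.50. Over all tested genes 11.6% fell and 14.2% rose. Shmt2, the mitochondrial enzyme that feeds one-carbon units from serine, averaged 9.13 ± 1.38 FPKM in phytic acid skin and 24.3 ± 4.73 in MC903 skin (log2 fold change -1.31 ± 0.15). Impdh1 and Gart are enzymes of purine synthesis. Impdh1 averaged 4.73 ± 0.274 FPKM in phytic acid skin and 10.4 ± 2.38 in MC903 skin, and Gart averaged 6.91 ± 0.155 FPKM in phytic acid skin and 10.2 ± 0.926 in MC903 skin (SD, n = 4). The gene that rose was Rrm2b, the p53-induced small subunit of ribonucleotide reductase, at 4.18 ± 0.345 FPKM in phytic acid skin and 3.11 ± 0.488 in MC903 skin. Its call (limma adjusted p = 0.0487) was lost in every fit that left out a library except that without MC903 replicate 3. With basal centring 5 of the 19 fell, as did 5.92% of all tested genes.

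Of 28 tested genes that control the step from G1 to S, 10 fell and 2 rose, with a median of -0.14. Over all tested genes 11.6% fell and 14.2% rose. Myc averaged 14.6 ± 2.03 FPKM in phytic acid skin and 28.5 ± 4.51 in MC903 skin, and Tfdp1, the DNA-binding partner of E2F factors, 16.9 ± 2.55 FPKM in phytic acid skin and 26.7 ± 1.86 in MC903 skin (SD, n = 4). E2f7, a repressing E2F factor, stood at 0.466, 0.507, 0.4001 and 0.479 FPKM in phytic acid skin, against 5.25, 4.58, 1.53 and 8.51 in MC903 skin (log2 fold change -1.88 ± 0.33). It passed the filter through MC903 skin alone, and without it 9 of 27 fell. Its phytic acid mean was 9.32% of the MC903 mean, and its log2 fold change was -3.18 by limma voom. The genes that rose encode inhibitors of cyclin-dependent kinases. Other tested genes of such inhibitors were not called: Cdkn1a (log2 fold change -0.14), Cdkn1c (0.11), Cdkn2b (-0.14) and Cdkn2d (0.16). Cdkn1b (p27) averaged 45.6 ± 3.62 FPKM in phytic acid skin and 29.9 ± 5.39 in MC903 skin, and Cdkn2c (p18) 15.3 ± 3.69 FPKM in phytic acid skin and 9.86 ± 2.36 in MC903 skin. The call of Cdkn2c (limma adjusted p = 0.0411) was lost in 6 of the 8 fits that left out a library, and was kept without phytic acid replicate 3 and without MC903 replicate 3. Of this list, 6 fell without phytic acid replicate 2, without phytic acid replicate 3, without MC903 replicate 4 and with basal centring. In that order, 10%, 9.08%, 7.89% and 5.92% of all tested genes fell in those fits.

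Some mitosis genes fell as well. Of 26 tested, 9 fell and 0 rose, and the median was -0.46 on the log2 scale. Over all tested genes 11.6% fell and 14.2% rose. Birc5, Ube2c and Cdk1 had the smallest p. Birc5 averaged 3.12 ± 0.753 FPKM in phytic acid skin and 5.54 ± 0.628 in MC903 skin, Ube2c 4.43 ± 1.3 FPKM in phytic acid skin and 8.18 ± 0.744 in MC903 skin, and Cdk1 3.8 ± 1.1 FPKM in phytic acid skin and 7.08 ± 1.17 in MC903 skin (SD, n = 4). Mki67, a usual marker of dividing cells, stood at 16.7, 15, 7.53 and 15.4 FPKM in phytic acid skin, against 15.5, 13.9, 28.6 and 19.99 in MC903 skin, its groups overlapped and it was not called (limma adjusted p = 0.213). The summed level of the mitosis list was lowest in phytic acid replicate 3 and highest in MC903 replicate 3. Without MC903 replicate 4 the count was 4, with basal centring it was 5, and with median-of-ratios scaling it was 15. In that order, 7.89%, 5.92% and 15% of all tested genes fell in those fits. The median was -0.28 without phytic acid replicate 3.

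**Figure D4:**
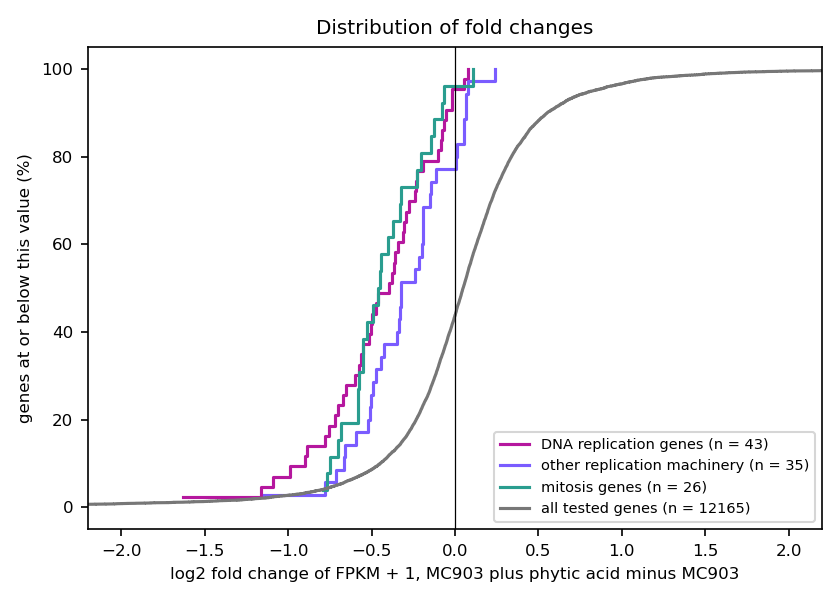
Share of genes at or below each log2 fold change (phytic acid skin minus MC903 skin) for the 43 tested replication genes, 35 other genes of the replication machinery, 26 mitosis genes and all 12165 tested genes. The 3 lists lie left of all genes, with medians of -0.40, -0.32 and -0.46 against 0.05.

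Markers of several cell types differed between the groups in the same libraries. Over all tested genes 14.2% were higher in phytic acid skin (1722) and 11.6% lower (1412). The fits that left out a library called 1072 to 2418 genes higher and 941 to 1561 lower. Of 12 tested skeletal muscle markers 11 were higher in phytic acid skin and 0 lower, with a summed FPKM of 9252 to 10888 in phytic acid skin and 4216 to 5033 in MC903 skin. The count was 7 without MC903 replicate 4. Langerhans and dendritic cell markers were higher in 10 of 10, or 9 of 9 without Batf3, which passed the filter through phytic acid skin alone (652 to 1379 FPKM in phytic acid skin and 143 to 353 in MC903 skin), T cell markers in 4 of 5 (14.1 to 37.6 in phytic acid skin and 6.02 to 11.3 in MC903 skin). The T cell count was 2 without phytic acid replicate 1, 2 or 4 or MC903 replicate 1 or 4. Adipocyte markers were higher in 3 of 9 (602 to 1097 in phytic acid skin and 229 to 556 in MC903 skin) and nerve markers in 5 of 8 (134 to 178 in phytic acid skin and 86 to 112 in MC903 skin). Without MC903 replicate 3 the adipocyte count was 6, and without phytic acid replicate 1 or 4 the nerve count was 3. Fibroblast markers were higher in 2 of 8 (592 to 1141 in phytic acid skin and 446 to 529 in MC903 skin), and macrophage markers in 4 of 12 (1205 to 1727 in phytic acid skin and 712 to 1191 in MC903 skin). The macrophage count was 2 without phytic acid replicate 1 or 4 or MC903 replicate 2 or 4. Of 12 basal keratinocyte genes, 2 were higher and 2 lower (2673 to 3148 in phytic acid skin and 4423 to 8026 in MC903 skin). Krt14, which was lower, averaged 1357 FPKM in phytic acid skin and 5275 in MC903 skin. Krt15, which was higher, averaged 459 FPKM in phytic acid skin and 119 in MC903 skin, and Krt5 was not called. Without phytic acid replicate 1 or MC903 replicate 2, 1 of the 12 was lower. Suprabasal keratinocyte genes were higher in 5 of 9 and lower in 1 (8030.4 to 10267 in phytic acid skin and 3717 to 6304 in MC903 skin). Among 13 hair follicle markers, 12 were in the table and 4 were tested, of which Tchh and Hoxc13 were lower. Without MC903 replicate 3, 2 were lower and 2 higher. Their summed level was 37.9 to 49.96 FPKM in phytic acid skin, and in MC903 skin it was 4160 in replicate 3 and 460.4 to 612 in the others. Most of the sum in those others was Tchh, at 458, 539 and 437 FPKM in MC903 replicates 1, 2 and 4. Tchh stood at 17.8 to 25.3 FPKM in phytic acid skin. The other tested markers, Lhx2 and Sox9, were not called with all libraries (log2 fold change 0.28 and 0.55). Krt35 was listed at 0 in all 4 phytic acid libraries, and no listed marker in the table was at 0 in all 8. The part of these differences in the fall of replication genes was not tested, beyond the counts given above with basal centring and without MC903 replicate 3.

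**Figure D5:**
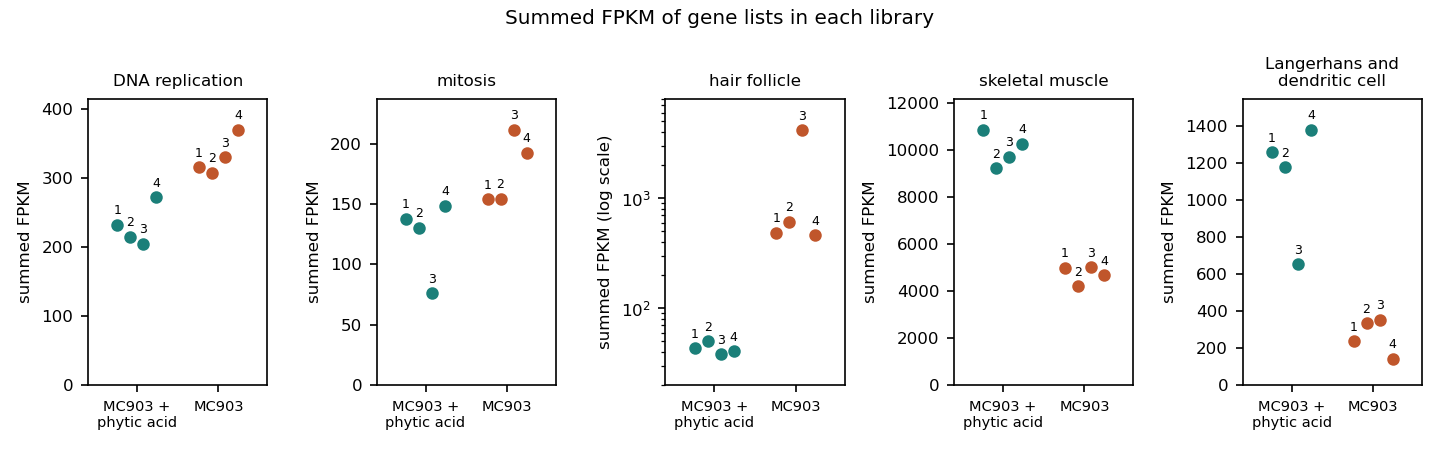
Summed FPKM of 5 gene lists in each library, labelled by replicate, with phytic acid skin on the left and a log axis for hair follicle. The replication sum does not overlap between groups, and MC903 replicate 3 stands out for hair follicle and is the highest for mitosis. In the other MC903 libraries most of the hair follicle sum is Tchh.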

How the data were processed

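Per the labels' protocols, RNA was taken from skin with TRIzol and made into libraries with a SMARTER mRNA-seq kit. Tools named in the submitters' processing notes are DESeq, TopHat2, HISAT2 and cutadapt, with mm10 as the build. The sources used here do not give the tool behind the deposited FPKM, its annotation or its strand setting, so overlapping genes and close copies have uncertain values. The authors deposited 1 FPKM column per library.

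Of the 21959 rows, 51 without a name were left out (0.016% to 0.0238% of a column sum), and 21 names stood on more than 1 row. Multiplied by GENCODE M21 exon lengths, 17509 of 17980 genes (97.4%) gave whole reads within 0.05 in all libraries, which gave the totals. Lig1 gave none.

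The test was limma 3.58.1 in R 4.3.3 (lmFit, eBayes with trend) on log2(FPKM + 1) with group as the single factor, two-sided, and Benjamini-Hochberg adjustment over all genes at 1 FPKM or more in 4 libraries or more. It was also run on simulated reads. These held no difference in cell makeup and no outlying library, so that run does not vouch for the calls here. A pseudocount of 1 understates changes of low genes. The alternatives were another pseudocount, filter, scaling, centring or error model, a replicate block and leaving out each library. The genes with every library's value include the called genes of smallest p in each role. Such values are also given for Mcm10, Pcna, Rpa1, Rpa3 and E2f1, which were not called in the main fit. E2f7 and Mki67, outside the 45, have them too. The 45 genes, the lists and these choices were made with earlier results of these data known. The ratios between genes were chosen after their values were seen. Coordinates are GRCm38, counted from 1, and all 45 genes are protein-coding.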

Additional observations from a re-analysis of the deposited data

Results flagged for a closer look

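In 4 of 90 combinations of gene and group, 1 of the 4 libraries lay far from the other 3 by Dixon's test, and chance gives about 1 in 20. Mcm2 stood at 5.97 FPKM in MC903 replicate 4, against 4.61 to 4.78 in the other MC903 libraries. Mcm3 stood at 14.3 FPKM there, against 9.69 to 10.2. Prim2 stood at 3.01 FPKM in the same library, against 2.29 to 2.31. Rpa1 stood at 11.4 FPKM in phytic acid replicate 3, against 12.9 to 13.1 in the other phytic acid libraries. Mcm2 and Mcm3 were also called without MC903 replicate 4.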

How the results depend on the processing

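Under 19 other settings, 0 replication genes were called higher and the median log2 fold change stayed below 0. The count of lowered genes (24) was 12 of 20 under a filter of 5 FPKM on the mean, and 13 with centring on basal keratinocyte genes. Over all tested genes 14.6% and 5.92% fell there, against 11.6% in the main fit. The 8 fits that left out a library gave 19 to 24 calls, a median of -0.49 to -0.35 (-0.40 with all) and 0 genes higher. The median was -0.54 with a pseudocount of 0.1, -0.51 under that filter and -0.54 by limma voom on recovered reads, an alternative chosen after seeing the data. With the replicate number as a block, 18 genes fell, as did 7.79% of all tested genes. Deviations of same-numbered libraries correlated at -0.284, -0.105, -0.286 and 0.225 for replicates 1 to 4. Only for replicate 4 was the same-numbered library the one of highest correlation. The labels do not say whether the numbers pair the libraries, and these correlations cannot settle it. Over all genes, median-of-ratios scaling gave 1469 higher and 1828 lower calls, against 1722 and 1412 as reported. No called gene changed sign. Of genes that were not called, the log2 fold change turned with basal centring for Cdc6 (0.0040), Rfc1 (0.015), Rpa1 (0.064), Rpa2 (0.065) and Slbp (0.031), and with library weights for Cdc6 (0.075), E2f1 (0.037), Rfc1 (0.0038), Rpa1 (0.021) and Slbp (0.077). It turned with TPM for Rpa1 (0.0081) and Rpa2 (0.0067), with median-of-ratios scaling for Orc6 (-0.020), and with 1 library left out for E2f1 (-0.19 to 0.036), Rpa1 (-0.040 to 0.027), Rpa2 (-0.074 to 0.032), Rpa3 (-0.0091 to 0.14) and Slbp (-0.14 to 0.044). The cause was not tested. Among the 43 tested replication genes, Orc1 had the fewest reads in a library (35), and a read count gives counting error only.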
